A study of Homo sapiens with 6 samples.

Results

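Keratin genes encode the intermediate filament proteins of epithelial cells. The genes described here are all rows of the count table whose Entrez ID has a RefSeq symbol of KRT plus a number up to that of KRT86, with at most 1 trailing letter. Pseudogenes, keratin-associated protein genes and KRT222 were left out by that rule. It took 54 of the 23459 genes in the table, 28 of type I and 26 of type II, which are all the keratins of that form in the RefSeq table. The members were not chosen by their values.

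RNA was sequenced from T47D-YA cells, a line derived from T47D luminal breast cancer cells in which the progesterone receptor present is its A form. The 3 groups had 2 libraries each: an empty vector control, and cells that overexpress either the 18 kDa or the 22.5 kDa form of FGF2, a secreted and nuclear growth factor. All 3 groups share the T47D-YA background, and the labels name no other allele, agent or time point. The labels do not say which promoter drives FGF2 or whether each population is 1 clone or a pool. Each isoform was set against the empty vector, and the isoforms against each other, so both comparisons with the empty vector rest on the same 2 control libraries.

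Keratins assemble only as pairs of an acidic type I and a basic type II chain, and the pairs bundle into filaments that anchor at desmosomes and give epithelial cells mechanical strength. Which pair a cell makes marks its kind: KRT8 with KRT18 and KRT19 is the set of simple and luminal epithelia, KRT5 with KRT14 that of basal cells, and KRT1 with KRT10 that of the suprabasal epidermis. In the breast, luminal cells are known for the first set and basal or myoepithelial cells for the second. The type I genes lie in a cluster on chromosome 17 and the type II genes in a cluster on chromosome 12, where KRT18 is the type I gene that lies beside KRT8.

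The counted totals ran from 5317687 to 6817324 per library, and 13124 genes had enough counts to be tested. FGF2 itself had 12 and 13 counts with the empty vector and 4365 to 8731 in the FGF2 libraries, so it follows the labels. Replicate 1 of each FGF2 group stood apart along the second principal component (25.5% of the variance), at -48.0 for 18 kDa and 42.7 for 22.5 kDa FGF2, against -2.65 and 8.29 for the replicates 2. Calls of keratins that change without both of those libraries are given with and without them. Of the 11 luminal markers other than keratins, all had counts. Levels are given as CPM, counts scaled to a common library size by the trimmed mean of M values (TMM). The summed level of these markers was 3723 and 3737 CPM with the empty vector. It was 3249 and 2617 CPM with 18 kDa FGF2, and 2772 and 2808 CPM with 22.5 kDa FGF2. Both control libraries were thus above every FGF2 library.

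Of the 54 keratins, 37 had at least 1 count in some library and 17 had none. Only 11 passed the low-count filter, which asks for enough counts in at least a group's worth of libraries. They were KRT10, KRT15, KRT18, KRT19, KRT23, KRT24 and KRT40 of type I, and KRT7, KRT8, KRT80 and KRT86 of type II. Of the 43 that were not tested, 26 had some counts, at most 48 over all libraries together. A count of 0 allows a level of up to 0.458 to 0.601 CPM, depending on the library (3 counts, counting error only).

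Among the 11 tested keratins, 3 were higher and 0 lower with 18 kDa FGF2 than with the empty vector, namely KRT10, KRT40 and KRT24. Over all 13124 genes, 8.88% passed in that comparison (adjusted p under 0.05, edgeR's quasi-likelihood test with Benjamini-Hochberg adjustment over all genes tested), 4.09% higher and 4.79% lower. Against the same controls, 3 were higher and 0 lower with 22.5 kDa FGF2, namely KRT10, KRT7 and KRT40, where 10.9% of all genes passed, 5.02% higher and 5.88% lower. Between the isoforms 0 keratins passed, where 1.58% of all genes passed, 1.13% higher and 0.45% lower. At that comparison 3 keratins were at an unadjusted p under 0.05 (KRT7, KRT8 and KRT18) and 0 passed with DESeq2. The median log2 fold change of the 11 was 0.41 with 18 kDa FGF2, -0.24 with 22.5 kDa FGF2 and -0.42 between the isoforms, beside -0.05, 0.01 and 0.02 over all tested genes. A keratin that is high in only 1 group could pass the filter through that group, so these counts are no share of the whole family.

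**Figure D1:**
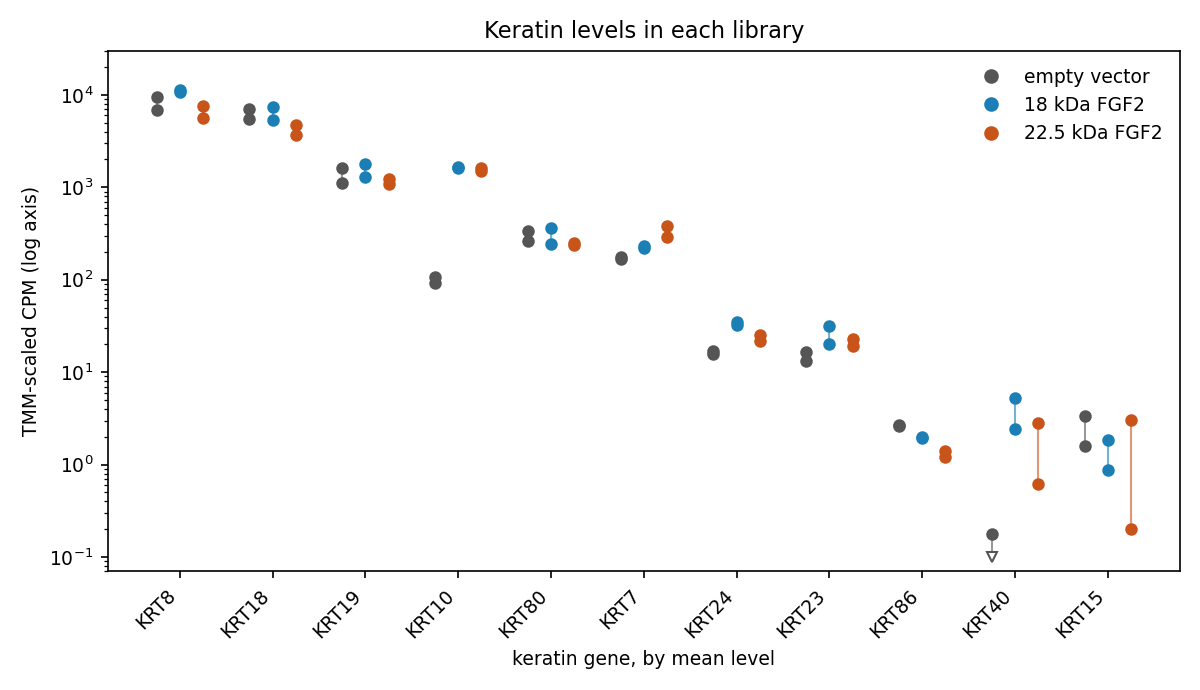
The level of each tested keratin in each library, as TMM-scaled CPM on a log axis, with a line joining the 2 libraries of a group (the open triangle is a library with 0 counts). KRT10 sits at 92.6 and 107 CPM with the empty vector and between 1505 and 1653 CPM in the 4 FGF2 libraries.

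KRT10 (Entrez 3858, chromosome 17) had the largest fold change of the tested keratins other than KRT40, which had few counts. It encodes the type I chain of differentiating, suprabasal keratinocytes. It had 518 and 570 counts with the empty vector, 10458 and 9410 with 18 kDa FGF2, and 10657 and 7508 with 22.5 kDa FGF2. All 4 FGF2 libraries lay far above both control libraries, and the FGF2 groups overlapped. In the order empty vector, 18 kDa and 22.5 kDa FGF2, its level was 99.8 ± 10.1, 1629 ± 34.1 and 1566 ± 86.6 CPM (SD, n = 2 per group). KRT10 rose 16.3-fold with 18 kDa FGF2, a log2 fold change of 4.03 (SE 0.26, 95% interval 3.49 to 4.57, edgeR adjusted p = 8.82e-11). The rise with 22.5 kDa FGF2 was 15.7-fold, a log2 fold change of 3.97 (SE 0.26, interval 3.43 to 4.51, edgeR adjusted p = 1.44e-10). Between the isoforms the log2 difference was -0.06 (SE 0.23, interval -0.53 to 0.42, edgeR adjusted p = 0.948), so that a difference of more than 0.53 either way lies outside the interval. By rank of raw counts among all genes, KRT10 moved from places 2570 and 2350 in the control libraries to places 24 to 46 in the FGF2 libraries.

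Among type II keratins, the usual partner of KRT10, KRT1, had no count in any of the 6 libraries. KRT2, a later type II chain of the epidermis, had 0 counts with the empty vector, 4 and 0 with 18 kDa FGF2 and 4 and 1 with 22.5 kDa FGF2. These counts are too few for a comparison. The type II chain that was abundant beside KRT10 was KRT8.

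KRT10-AS1, a noncoding RNA gene that overlaps KRT10 on the opposite strand, had 297 and 299 counts with the empty vector, 933 and 998 with 18 kDa FGF2, and 977 and 736 with 22.5 kDa FGF2. It rose 2.92-fold with 18 kDa FGF2 (log2 1.54, SE 0.22, edgeR adjusted p = 2.25e-05) and 2.72-fold with 22.5 kDa FGF2 (log2 1.44, SE 0.22, edgeR adjusted p = 4.84e-05). The ratio of KRT10 to KRT10-AS1 counts was 1.74 and 1.91 in the control libraries and 9.43 to 11.2 in the FGF2 libraries. The 2 genes thus did not move by the same factor. The sources used here do not give the strand setting of the counting, and reads of the 2 genes cannot be told apart where they overlap.

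KRT10, KRT24 and KRT40 are the 3 keratins that passed with 18 kDa FGF2, and all 3 lie in the chromosome 17 cluster on the minus strand. The 250 bases before the first RefSeq start of each are shown so that these start regions can be compared. They are from RefSeq, GRCh38.p14, a build other than that of the counts. KRT24 did not pass with 22.5 kDa FGF2, and shared regulation of the 3 genes was not tested. Capitals mark matches to the motifs searched.
KRT10, chr17:40822615-40822864: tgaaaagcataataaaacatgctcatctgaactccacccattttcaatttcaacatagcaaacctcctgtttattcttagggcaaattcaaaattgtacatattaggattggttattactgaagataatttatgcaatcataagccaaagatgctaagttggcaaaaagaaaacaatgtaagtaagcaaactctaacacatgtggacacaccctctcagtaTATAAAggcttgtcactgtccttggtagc
KRT24, chr17:40703753-40704002: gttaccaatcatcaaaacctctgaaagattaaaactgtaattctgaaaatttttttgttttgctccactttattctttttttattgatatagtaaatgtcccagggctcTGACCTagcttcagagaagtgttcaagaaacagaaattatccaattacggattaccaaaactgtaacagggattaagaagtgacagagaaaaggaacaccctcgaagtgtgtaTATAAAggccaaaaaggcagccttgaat
KRT40, chr17:40987002-40987251: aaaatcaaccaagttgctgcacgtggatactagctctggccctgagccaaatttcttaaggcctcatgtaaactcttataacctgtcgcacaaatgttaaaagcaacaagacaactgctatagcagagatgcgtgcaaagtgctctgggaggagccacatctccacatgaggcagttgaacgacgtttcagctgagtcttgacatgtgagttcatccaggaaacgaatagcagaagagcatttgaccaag
Before KRT10 and KRT24 the capitals mark a TATA motif (TATAAA) that begins 29 and 28 bases before the start, and in KRT24 also an oestrogen receptor half-site (AGGTCA) read on the other strand. The KRT40 window held none of the 5 motifs. KRT40 has several starts in the table, and the one listed first is shown.

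The motifs were searched on both strands of the 250 bases before the start, with 1 window per gene. The search covered 34 keratin promoters and all 27305 promoters of the table. TATAAA stood in 20 of the 34 keratin windows (58.8%) and in 11.1% of all windows. The oestrogen receptor half-site stood in 3 keratin windows (8.82%) and 12.1% of all, and GGGCGG, the letters bound by SP and KLF factors, in 4 (11.8%) and 42.3%. CTTTGAT, the TCF/LEF motif, stood in 1 keratin window (2.94%, KRT2) and 2.28% of all. The AP-1 letters TGANTCA stood in 0 keratin windows and in 6.6% of all. Keratin starts were thus richer in TATA letters and poorer in GC-box letters than the table as a whole, as a description of these windows. Only 4 of the 11 tested keratins had a window in the table.

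KRT40 (Entrez 125115, chromosome 17), a type I keratin of the hair shaft, had 1 and 0 counts with the empty vector, 16 and 30 with 18 kDa FGF2, and 4 and 14 with 22.5 kDa FGF2. Both isoform groups lay above the control libraries, and in CPM the isoform groups overlapped, at 2.46 and 5.27 for 18 kDa and 0.611 and 2.81 for 22.5 kDa FGF2. KRT40 was higher with 18 kDa FGF2 by a count ratio of 41.2 (exact binomial 95% interval 7.03 to 1661, edgeR adjusted p = 0.00344). Its count ratio with 22.5 kDa FGF2 was 17 (interval 2.69 to 710, edgeR adjusted p = 0.0438). The second call was lost with DESeq2 (adjusted p = 0.126), without empty vector replicate 2 (0.125) and without 22.5 kDa replicate 2 (0.37). Between the isoforms the ratio of 22.5 to 18 kDa counts was 0.414 (interval 0.226 to 0.728), which covers counting error only, and the edgeR adjusted p was 0.459. KRT40 entered the test through the FGF2 libraries alone, so its calls are no independent support that it rose. At its highest, it reached 5.27 CPM, far below KRT10.

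KRT24 (Entrez 192666, chromosome 17), a type I keratin of differentiated stratified epithelia, had 95 and 84 counts with the empty vector, 209 and 200 with 18 kDa FGF2, and 144 and 127 with 22.5 kDa FGF2. In CPM the groups did not overlap, at 16.4 ± 0.867, 33.6 ± 2.16 and 23.7 ± 2.45 in that order (SD, n = 2 per group). KRT24 rose 2.05-fold with 18 kDa FGF2 (log2 1.04, SE 0.29, edgeR adjusted p = 0.0225). That call was lost without empty vector replicate 1 (adjusted p = 0.177) or replicate 2 (0.231), with log2 fold changes of 1.09 and 0.99. For 22.5 kDa FGF2 the log2 fold change was 0.53 (SE 0.29, edgeR adjusted p = 0.282), and between the isoforms it was -0.50 (SE 0.28, interval -1.09 to 0.08, edgeR adjusted p = 0.497).

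KRT7 (Entrez 3855, chromosome 12), a type II keratin of simple and ductal epithelia, had 975 and 888 counts with the empty vector, 1447 and 1316 with 18 kDa FGF2, and 1915 and 1920 with 22.5 kDa FGF2. Its level was 170 ± 5.46, 227 ± 6.45 and 339 ± 65.4 CPM in that order (SD, n = 2 each), with no overlap between any 2 groups. KRT7 rose 1.99-fold with 22.5 kDa FGF2 (log2 0.99, SE 0.22, edgeR adjusted p = 0.00277). Without empty vector replicate 1 or replicate 2 the adjusted p was 0.0527 and 0.0758, with log2 fold changes of 1.02 and 0.96. With 18 kDa FGF2 the log2 fold change was 0.41 (SE 0.22, interval -0.03 to 0.85, edgeR adjusted p = 0.294). Between the isoforms KRT7 differed by 0.58 (SE 0.21, interval 0.14 to 1.02), which did not pass (edgeR adjusted p = 0.231). Without replicate 1 of both FGF2 groups that difference was 0.74 and passed (adjusted p = 0.0205).

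**Figure D2:**
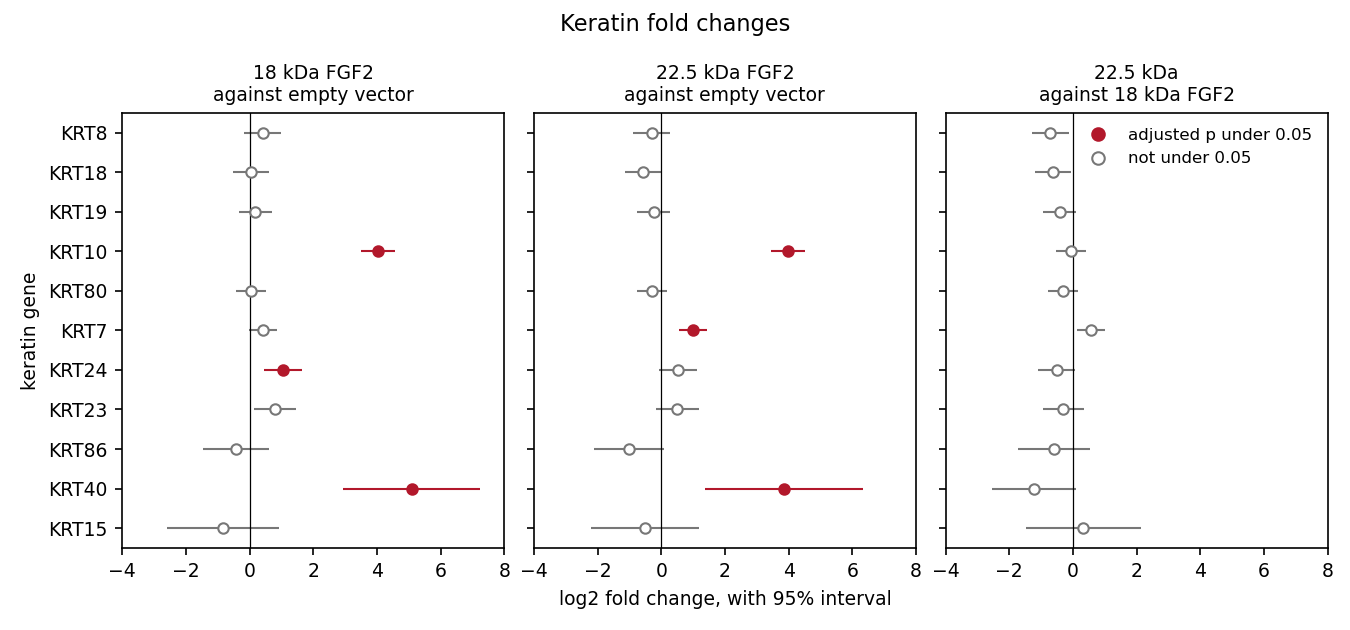
The log2 fold change of each tested keratin in the 3 comparisons, with a 95% interval worked out from the edgeR test statistic. Filled points have an adjusted p under 0.05. KRT10 stands near 4 in both comparisons with the empty vector and at -0.06 between the isoforms, and the fitted values of KRT40 rest on 1 control count.

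KRT8, KRT18 and KRT19, the luminal set, were the 3 most abundant keratins per kb of transcript in every group, and none of them passed in any comparison in the fit without a block. KRT8 (Entrez 3856, chromosome 12), the type II chain of simple epithelia, took rank 1 or 2 among all genes by raw counts in all 6 libraries. It had 38169 and 51059 counts with the empty vector, 73061 and 60370 with 18 kDa FGF2, and 37179 and 38168 with 22.5 kDa FGF2. Its level was 8202 ± 1948, 10909 ± 429 and 6664 ± 1395 CPM (SD, n = 2 each). Both 18 kDa libraries lay above the other 4, while the empty vector and 22.5 kDa libraries overlapped. The log2 fold change was 0.41 with 18 kDa FGF2 (SE 0.28, interval -0.17 to 0.99, edgeR adjusted p = 0.457) and -0.30 with 22.5 kDa FGF2 (SE 0.28, interval -0.88 to 0.28, edgeR adjusted p = 0.591). Between the isoforms it was -0.71 (SE 0.28, interval -1.29 to -0.13, edgeR adjusted p = 0.274).

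KRT18 (Entrez 3875, chromosome 12), the type I partner of KRT8, had 30668 and 37430 counts with the empty vector, 48579 and 30614 with 18 kDa FGF2, and 24160 and 23361 with 22.5 kDa FGF2. In CPM the 18 kDa libraries, at 7455 and 5378, spanned those of the empty vector at 5483 and 7023, and the 22.5 kDa libraries were the lowest at 3689 and 4683. The log2 fold change was 0.04 with 18 kDa FGF2 (SE 0.28, interval -0.53 to 0.60, edgeR adjusted p = 0.959). Against the same controls it was -0.58 for 22.5 kDa FGF2 (SE 0.28, interval -1.15 to -0.01, edgeR adjusted p = 0.204), and between the isoforms -0.62 (SE 0.28, interval -1.19 to -0.05, edgeR adjusted p = 0.362). The intervals are for each gene alone, and none of these differences passed once all genes were counted. The annotation places KRT8 and KRT18 so that they overlap, and reads in the shared stretch cannot be told apart here.

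KRT19 (Entrez 3880, chromosome 17), a short type I keratin of luminal and ductal cells, had 6179 and 8646 counts with the empty vector, 11623 and 7386 with 18 kDa FGF2, and 7063 and 6148 with 22.5 kDa FGF2. Its level was 1363 ± 366, 1541 ± 344 and 1155 ± 109 CPM (SD, n = 2 each), and the empty vector libraries overlapped with both other groups. The log2 fold changes were 0.18 (interval -0.35 to 0.70, edgeR adjusted p = 0.762), -0.24 (interval -0.76 to 0.29, edgeR adjusted p = 0.65) and -0.42 (interval -0.94 to 0.11, edgeR adjusted p = 0.548). The direction with 18 kDa FGF2 turned for KRT18 and KRT19 when empty vector replicate 1 or 18 kDa replicate 1 was left out. It is therefore given as a value only.

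The remaining tested keratins did not pass in any comparison. KRT80, a type II keratin of differentiating epithelia, had 1253 to 2386 counts per library, with log2 fold changes of 0.03 and -0.29 against the empty vector. KRT23, a type I keratin of simple epithelia, had 73 and 88 counts with the empty vector, 133 and 179 with 18 kDa FGF2, and 125 and 115 with 22.5 kDa FGF2. In CPM every FGF2 library lay above both control libraries. The log2 fold changes of KRT23 were 0.81 (SE 0.32, edgeR adjusted p = 0.133) and 0.51 (SE 0.32, edgeR adjusted p = 0.374). Without 18 kDa replicate 1 the first was 1.12 and passed (adjusted p = 0.0395), and without replicate 1 of both FGF2 groups it was 1.10 (adjusted p = 0.00676).

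KRT86, a type II keratin of the hair shaft, had 15 and 14 counts with the empty vector, 13 and 11 with 18 kDa FGF2, and 8 and 7 with 22.5 kDa FGF2. The 22.5 kDa libraries were the lowest at 1.22 and 1.40 CPM, against 2.68 and 2.63 CPM in the controls, and the log2 fold change of -1.01 did not pass (SE 0.53, edgeR adjusted p = 0.262). KRT81 and KRT86 are close copies: 30.1% of the windows of 101 bases in the longest KRT81 transcript, and 27.8% of those in KRT86, also occur in another gene's transcript. Their values are uncertain for that reason. KRT8, KRT18, KRT19, KRT10, KRT7, KRT80, KRT24, KRT23, KRT40 and KRT15 shared no such window with another gene on the same strand of the transcripts. That search does not cover overlap on opposite strands, so it says nothing of KRT10 with KRT10-AS1 or of other stretches that overlap in the genome. KRT15, a type I keratin of basal cells, varied widely within a group, with 20 and 1 counts in the 22.5 kDa libraries.

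The basal and stress keratins were near 0 throughout. KRT5, the type II marker of basal cells, had 2 counts over all 6 libraries, and its partner KRT14 had 10. KRT17 had 9, KRT6B 8, KRT16 3, and KRT6A and KRT6C 1 each. KRT15 was the 1 member of the 8 on that list with enough counts to be tested, and 0 members passed in any comparison (0 at an unadjusted p under 0.05, and 0 with DESeq2). The luminal set was thus present and the basal pair nearly absent in every group at this depth. The 9 keratins of the hair root sheath were all below the filter.

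Among the untested keratins, KRT20, a type I keratin of intestinal and urothelial cells, differed by group and is named after its values were seen. It had 0 counts in both empty vector libraries, 7 and 6 with 18 kDa FGF2, and 1 and 1 with 22.5 kDa FGF2. Against a floor of 3 counts per library it was at least 1.94-fold higher with 18 kDa FGF2. With other filters, which it passed through the 18 kDa libraries where it is high, its adjusted p with 18 kDa FGF2 was under 0.05 (edgeR adjusted p = 0.0267 with no filter and 0.0164 with a CPM of at least 1 in 2 libraries), and DESeq2 gave it no adjusted p. KRT12, the type I keratin of the cornea, had 0 counts with the empty vector, 2 and 5 with 18 kDa FGF2, and 5 and 1 with 22.5 kDa FGF2. The number of keratins with any count was 19 and 21 in the control libraries, 28 and 21 with 18 kDa FGF2, and 22 and 28 with 22.5 kDa FGF2, so these overlapped.

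Levels of different keratins were compared as TMM-scaled CPM per kb of transcript, using the median length of a gene's coding transcripts. With the empty vector the order of these levels was KRT8 (4862), KRT18 (4003), KRT19 (1873), KRT7 (158), KRT80 (77.2) and KRT10 (73.7). The libraries of KRT8 (4045 and 5679) and KRT18 (3510 and 4496) overlapped, as did those of KRT80 (87.2 and 67.3) and KRT10 (68.4 and 79.0), so the order within each of these pairs is not beyond the spread. With the longest transcript KRT18 (3687) stood above KRT8 (3366). With FGF2, KRT10 took the fourth place, at 1204 per kb with 18 kDa and 1157 per kb with 22.5 kDa FGF2, below KRT19 (2116 and 1587) and above KRT7 (211 and 315). By this length, the FGF2 libraries of KRT10 (1112 to 1221) lay below all those of KRT19 (1482 to 2450). That gap depends on the length used. With the longest transcript the levels with 18 and 22.5 kDa FGF2 were 767 and 737 for KRT10, against 1108 and 831 for KRT19. In CPM not divided by length, KRT10 was above KRT19 in both 22.5 kDa libraries (1627 and 1505 against 1079 and 1232).

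**Figure D3:**
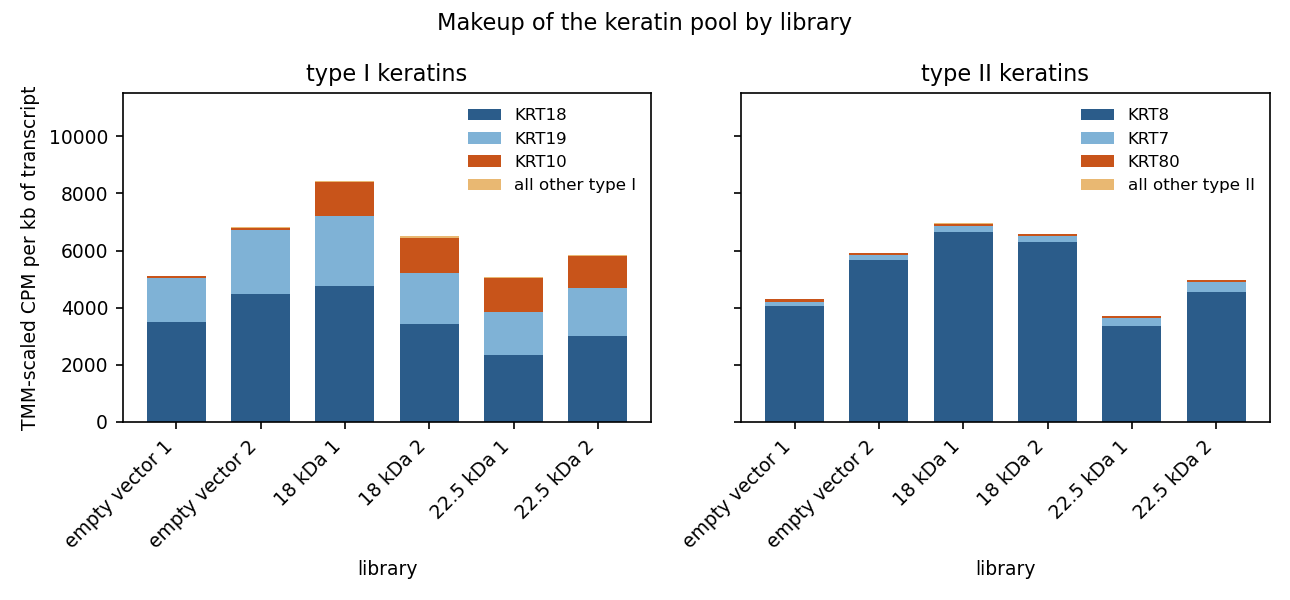
The keratin pool of each library, as summed TMM-scaled CPM per kb of transcript, split by gene for type I (left) and type II (right). KRT10 fills 1.34% and 1.16% of the type I level in the control libraries and 14.0% to 23.7% in the FGF2 libraries, while KRT8 fills 90.9% to 96.2% of the type II level in all.

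The makeup of the type I pool differed between control and FGF2 libraries. Of the type I level per kb, KRT10 made up 1.25% ± 0.127 with the empty vector, and 16.4% ± 3.37 and 21.4% ± 3.28 with the 18 and 22.5 kDa forms (SD, n = 2 per group). The share of KRT18 was 68.6% and 65.8% in the control libraries, 56.5% and 53.0% with 18 kDa FGF2, and 46.5% and 51.3% with 22.5 kDa FGF2. The 2 control libraries were above all 4 FGF2 libraries. KRT19 kept 27.4% to 32.6% in all 6. On the type II side KRT8 made up 94.1% and 96.2% with the empty vector, 95.6% and 95.7% with 18 kDa FGF2, and 90.9% and 91.4% with 22.5 kDa FGF2, where KRT7 was highest. These shares are descriptions, since the smallest p that an exact two-sided permutation test can give with 2 libraries a group is 0.33.

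The ratio of summed type I to type II level per kb was 1.17 ± 0.0242 with the empty vector, and 1.10 ± 0.160 and 1.27 ± 0.137 with the 18 and 22.5 kDa forms (SD, n = 2 per group), and the groups overlapped. Leaving KRT10 out of the type I sum, the ratio was 1.17 and 1.14 in the control libraries, 1.04 and 0.803 with 18 kDa FGF2, and 1.05 and 0.953 with 22.5 kDa FGF2, so that both control libraries were above all FGF2 libraries. With KRT10 in the sum the control libraries overlapped with the FGF2 libraries, and without it they did not, while the FGF2 groups overlapped with each other either way. The ratio of KRT8 to KRT18 per kb was 1.15 and 1.26 with the empty vector, 1.39 and 1.83 with 18 kDa FGF2, and 1.42 and 1.51 with 22.5 kDa FGF2, again without overlap between control and FGF2 libraries. All keratins together took 1.66% ± 0.264 of all counts with the empty vector, and 2.06% ± 0.151 and 1.41% ± 0.0855 with the 18 and 22.5 kDa forms (SD, n = 2 per group). KRT8 and KRT18 together made up 87.6% and 88.3% of keratin counts in the control libraries, 82.2% and 82.0% with 18 kDa FGF2, and 74.0% and 78.2% with 22.5 kDa FGF2.

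The genes around the keratins of chromosome 17 were read beside KRT10. Of the 53 other protein-coding genes between the outermost keratins and up to 10 genes beyond them, 16 were tested. In each comparison with the empty vector 0 were higher and 1 was lower, IGFBP4, which encodes a binding protein of insulin-like growth factors. Over all genes 4.09% were higher and 4.79% lower with 18 kDa FGF2, and 5.02% and 5.88% with 22.5 kDa FGF2. These counts are therefore not read as a result about the neighbours. IGFBP4 lies beyond the cluster's KRT222 end and had 232 and 478 CPM with the empty vector, 26.2 and 16.0 with 18 kDa FGF2, and 33.4 and 39.1 with 22.5 kDa FGF2. Its log2 fold changes were -4.06 (SE 0.38, edgeR adjusted p = 6.03e-05) and -3.29 (SE 0.36, edgeR adjusted p = 1.72e-04), and without replicate 1 of both FGF2 groups, a fit with 1 residual degree of freedom, they were -4.46 and -3.18 and neither passed (0.316 and 0.323). KRT222, a keratin-like gene near KRT24, had 14.9 ± 4.03 CPM with the empty vector and 27.9 ± 8.22 with 18 kDa FGF2 (SD, n = 2 each, log2 0.91, edgeR adjusted p = 0.109). It passed without 18 kDa replicate 1 (adjusted p = 0.0292) and without replicate 1 of both FGF2 groups (0.00396). Within the cluster KRT10 and KRT40 stood apart in size from KRT24, KRT23, KRT15 and KRT19.

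**Figure D4:**
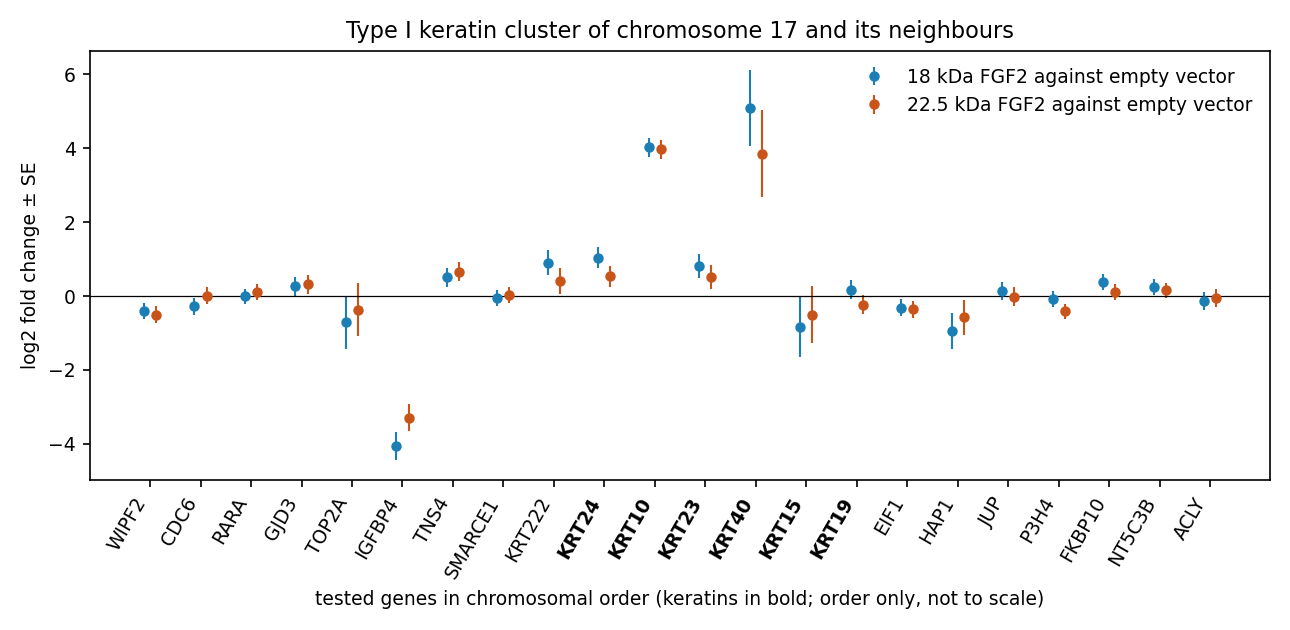
Log2 fold changes (± SE) against the empty vector of the tested genes along the type I keratin region of chromosome 17, in their order on the chromosome and not to scale, with keratins in bold. KRT10 stands near 4 for both isoforms while its neighbours KRT24 and KRT23 lie between 0.51 and 1.04, and IGFBP4 is the 1 gene far below 0.

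On chromosome 12, 14 of 17 such neighbours of the type II keratins were tested. With 18 kDa FGF2 1 was higher (ACVRL1) and 3 lower (TNS2, NR4A1 and ITGB7). The same gene was higher with 22.5 kDa FGF2, and 4 were lower (those 3 and SCN8A). Of these 9 calls, 5 held without any 1 library, those of NR4A1 and ITGB7 for both isoforms and of TNS2 for 1 of them. Over all genes 8.88% and 10.9% passed in these comparisons. ACVRL1, at 0.536 and 0.563 CPM with the empty vector, entered the test through the FGF2 libraries alone. Its calls are no independent support that it rose. Without replicate 1 of both FGF2 groups ACVRL1 was lost with 18 kDa FGF2 (adjusted p = 0.0614) and TNS2 passed between the isoforms (0.0205). KRT8, KRT18, KRT80 and KRT86 in that region did not pass in either comparison.

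Genes that act with keratins were described from lists. Of 21 linkers and desmosome plaque genes, which tie keratin filaments to junctions, 16 were tested and 0 passed in any comparison (at an unadjusted p under 0.05, 0 with 18 kDa FGF2, 6 with 22.5 kDa FGF2 and 1 between isoforms, and 0 with DESeq2). The median log2 fold changes of the 16 were 0.18, 0.28 and 0.19. JUP, the plakoglobin gene, had 2432 to 3397 CPM over the 6 libraries, and its log2 fold changes against the empty vector were 0.14 and -0.02. Over all genes 8.88%, 10.9% and 1.58% passed in the 3 comparisons, so a count of 0 among 16 is not read as a result about the linkers.

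Of 18 other intermediate filament genes, 11 were tested. NES, the nestin gene of progenitor cells, fell from 47 counts over the control libraries to 10 with 18 kDa and 8 with 22.5 kDa FGF2 (edgeR adjusted p = 0.00509 and 0.00271). NES entered the test through the empty vector libraries alone, so these calls are no independent support that it fell. Both calls were lost with DESeq2, the first also without empty vector replicate 2 (adjusted p = 0.0671) or 18 kDa replicate 1 (0.0604), and the second without either 22.5 kDa library (0.0531 and 0.0713). NEFL, the neurofilament light chain gene, had 0 counts with the empty vector and with 18 kDa FGF2, and 17 and 14 with 22.5 kDa FGF2 (edgeR adjusted p = 3.71e-04 against the empty vector and 0.00149 between the isoforms). It passed the filter through the 22.5 kDa libraries alone, so these calls are no independent support. The second was lost without 22.5 kDa replicate 2 (adjusted p = 0.135), and DESeq2 gave it no adjusted p. LMNB1, the lamin B1 gene, was lower with 22.5 kDa FGF2 (log2 -0.78, edgeR adjusted p = 0.0285), a call lost without empty vector replicate 1, empty vector replicate 2 or 22.5 kDa replicate 2 (up to 0.257). Between the isoforms LMNB1 passed without replicate 1 of both FGF2 groups (log2 -0.79, adjusted p = 0.0223). The median log2 fold changes of the 11 were -0.26, -0.32 and -0.24.

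Of 27 cornification genes, which build the outer envelope of keratinocytes in which KRT10 is made, only 7 were tested. IVL, the involucrin gene of the envelope, had 75 and 52 counts with the empty vector, 256 and 139 with 18 kDa FGF2, and 133 and 56 with 22.5 kDa FGF2. It rose with 18 kDa FGF2 (log2 1.46, edgeR adjusted p = 0.00871), a call lost without empty vector replicate 2 or 18 kDa replicate 1 (adjusted p up to 0.114). Its log2 fold change with 22.5 kDa FGF2 was 0.45 (edgeR adjusted p = 0.506). ALOX12B, an epidermal lipoxygenase gene, fell from 37 counts to 2 and 7 (edgeR adjusted p = 7.33e-04 and 0.0119). ALOX12B entered the test through the empty vector libraries alone, so these calls are no independent support that it fell. Its second call was lost with DESeq2, without empty vector replicate 2 and without either 22.5 kDa library (adjusted p up to 0.193). The other 5 tested genes of the list did not pass in either comparison, and between the isoforms 0 passed (2 at an unadjusted p under 0.05, 1 with DESeq2). The median log2 fold changes of the 7 were -0.36, -0.08 and 0.34.

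Of 24 transcription factors known to act on keratin genes, 23 were tested, and 2 were higher and 6 lower with 18 kDa FGF2, against 3 higher and 5 lower with 22.5 kDa FGF2. Over all genes 4.09% were higher and 4.79% lower in the first comparison, and 5.02% and 5.88% in the second. TFAP2B, an AP-2 factor, had 72 and 58 counts with the empty vector, 1 and 1 with 18 kDa FGF2, and 3 and 1 with 22.5 kDa FGF2 (edgeR adjusted p = 6.18e-07 and 1.40e-06). LEF1, a Wnt pathway factor of the hair follicle, had 26 and 47 counts, then 0 and 0, then 1 and 2 (edgeR adjusted p = 7.34e-06 and 6.10e-05). Both TFAP2B and LEF1 entered the test through the empty vector libraries alone, so their calls are no independent support that they fell. SOX9, a progenitor factor, had log2 fold changes of -3.46 and -2.61 (edgeR adjusted p = 1.90e-06 and 3.27e-05). These 3 factors passed in both comparisons in all 13 alternatives read for single genes. KLF4, a differentiation factor of the epidermis, had log2 fold changes of -1.88 and -2.25 (edgeR adjusted p = 0.00374 and 7.79e-04), the second lost without 22.5 kDa replicate 2 (0.0598).

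ELF5, a luminal progenitor factor, had 576 and 430 counts with the empty vector, 153 and 191 with 18 kDa FGF2, and 466 and 244 with 22.5 kDa FGF2. It was the 1 listed factor called between the isoforms, higher with 22.5 kDa FGF2 by 1.08 on the log2 scale (edgeR adjusted p = 0.0241). That call was lost without 18 kDa replicate 1 or either 22.5 kDa library, and without replicate 1 of both FGF2 groups (adjusted p up to 0.484). In that last fit ELF5 was lower with 22.5 kDa FGF2 than with the empty vector (log2 -0.90, adjusted p = 0.00113). EHF fell with both isoforms, the second call being lost without either 22.5 kDa library (adjusted p = 0.0775 and 0.145). The higher factors with 18 kDa FGF2 were FOXN1, a call lost without empty vector replicate 1 (0.432) or 22.5 kDa replicate 2 (0.0581), with DESeq2 (0.0883) or with only the 2 groups compared (0.0643), and GRHL1. The GRHL1 call was lost without empty vector replicate 2, 18 kDa replicate 2 or either 22.5 kDa library (0.0695 to 0.374) and with only the 2 groups compared (0.1004). Those with 22.5 kDa FGF2 were GRHL3, lost without empty vector replicate 2 (0.0583) or 22.5 kDa replicate 1 (0.0501), GRHL1, lost without empty vector replicate 2 or either 22.5 kDa library (0.0918 to 0.148), and CEBPA, lost without either empty vector library or 22.5 kDa replicate 2 (0.0739 to 0.361). The median log2 fold changes of the 23 were 0.04, -0.11 and 0.24. Some of these names were chosen after their values were seen.

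Marker lists of cell types were read beside the keratins. In the luminal list with its 3 keratins, 13 of 14 were tested, and PGR, XBP1 and ESR1 were lower with either isoform. The call of ESR1 with 22.5 kDa FGF2 was lost without 22.5 kDa replicate 2 (adjusted p = 0.0523). XBP1 passed between the isoforms without replicate 1 of both FGF2 groups (0.0254). The summed level of the myoepithelial list, the cells that would bring KRT5 and KRT14, was 46.3 to 48.5 CPM with the empty vector, 46.9 to 51.3 with 18 kDa FGF2 and 38.3 to 50.2 with 22.5 kDa FGF2. Of its 7 genes 5 were tested, with ACTG2 and CALD1 higher with 18 kDa FGF2, CALD1 higher with 22.5 kDa FGF2 and ACTG2 lower between the isoforms. ACTG2 had 1 and 0 counts with the empty vector, 16 and 12 with 18 kDa FGF2 and 1 and 1 with 22.5 kDa FGF2. It entered the test through the 18 kDa libraries alone, so its calls are no independent support. Fibroblast markers (5 of 9 tested, THY1 lower with both isoforms) summed to 69.2 to 83.5, 56.0 to 57.3 and 54.7 to 59.9 CPM. Endothelial markers summed to 19.7 to 19.9, 14.8 to 15.0 and 7.02 to 9.82 CPM. Of these 3 of 7 were tested and TEK was at 0, with VWF higher and KDR lower for 18 kDa FGF2 and ESAM lower for 22.5 kDa FGF2. THY1 entered the test through the empty vector libraries and VWF through the 18 kDa libraries, so the same limit holds for their calls. Leukocyte markers (2 of 8 tested, none called, CD3E at 0) summed to 15.2 to 15.4, 11.8 to 16.7 and 7.64 to 10.2 CPM. The share passing over all genes was 8.88%, 10.9% and 1.58% in the 3 comparisons. No count of calls in the marker lists is read as a result about a cell type. Of the 9 calls among these non-luminal markers, 2 held without any 1 library, those of THY1. The CALD1 call with 22.5 kDa FGF2 was among those lost, also without replicate 1 of both FGF2 groups (0.0635). The part of other cells in the keratin results was not tested. In bulk RNA, more cells that make a keratin and more of its RNA per cell cannot be told apart.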

How the data were processed

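Total RNA of 6 T47D-YA samples, 2 per group, was sequenced as directional paired-end libraries, per the labels' protocols. The authors deposited whole-number counts of reads per Entrez gene, with no normalization. The build was hg19 and edgeR was used, per the submitters' processing notes, while the sources used here give no aligner, counter or strand setting. Fewer reads were counted than the labels' protocols state as sequenced. Symbols came from RefSeq by Entrez ID (23308 of 23459 matched) and transcript lengths from GENCODE.

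All 6 libraries were fitted together with edgeR 4.0.16 in R 4.3.3 (TMM, filterByExpr by group, robust quasi-likelihood test, two-sided, adjusted over 13124 genes), on 3 residual degrees of freedom. Each SE was worked out from the log2 fold change and the F statistic of its test, and each interval from that SE and a t quantile. DESeq2 1.42.0, other filters, fewer samples, a replicate block and the longest transcript were alternatives. On simulated counts, the test recovered 39.8%, 37.8% and 22% of 2-fold and 98%, 91.9% and 91.8% of 4-fold changes (18 kDa against empty vector on 12910 genes, 22.5 kDa against empty vector on 12879, between isoforms on 12891). The simulated counts had the same spread for every gene, few changed genes and no outlying library. Those rates therefore hold for that setting and are no measure of recovery in these data. No label ties the libraries of a group to separate cultures. A p-value here thus covers only the scatter of these libraries, and that scatter may be technical.

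The members and lists were chosen with earlier results of these data known. The rule for named genes takes every called keratin, the 8 most abundant keratins, KRT10, KRT8, KRT18, KRT19 and KRT40, up to 4 called members per other list and comparison (or the 2 most abundant), and called cluster neighbours. A planned comparison of keratin proteins was replaced by the share of windows of 101 bases found in another gene's transcript, since protein sequences were not used here. Some list results are not reported here.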

Additional observations from a re-analysis of the deposited data

How the results depend on the processing

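Of the keratin fold changes recomputed under the alternatives, 329 kept their direction and their side of the threshold, 11 turned direction, 7 lost a call and 3 gained one, and KRT10 passed against the empty vector in every setting (adjusted p at most 8.41e-06 and 1.95e-05). Leaving out 1 library at a time, 2 to 4 keratins passed with 18 kDa FGF2, 1 to 3 with 22.5 kDa FGF2 (1 without empty vector replicate 2) and 0 between the isoforms. Members of the other lists that passed numbered 8 to 11, 5 to 17 and 0 to 4 in those fits.

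The log2 fold change with 18 kDa FGF2 turned for KRT18 to -0.13 without empty vector replicate 1 and to -0.19 without 18 kDa replicate 1 (range over left-out libraries up to 0.31), for KRT19 to -0.075 and -0.043 (up to 0.48), and for KRT80 to -0.14 without empty vector replicate 2 and -0.26 without 18 kDa replicate 1 (up to 0.34). For 22.5 kDa FGF2, KRT19 ranged from -0.49 to 0.069, the latter without empty vector replicate 2. Without replicate 1 of both FGF2 groups, an alternative chosen after seeing the data, KRT18, KRT19 and KRT80 were at -0.21, -0.065 and -0.28 with 18 kDa FGF2 and KRT80 at 0.029 between the isoforms. In that fit 1 keratin (KRT7) and 1 list member passed between the isoforms, and 19 list members with 22.5 kDa FGF2. With no low-count filter 4 list members passed between the isoforms. KRT40 with 22.5 kDa FGF2 could not be fitted with only the 2 groups compared, since the filter removed it. With the longest transcript the ratio of type I to type II was 1.34 with the empty vector.

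Same-numbered replicates deviated together between the empty vector and 22.5 kDa groups (correlation 0.39). In both pairs with the 18 kDa group they deviated in opposite directions (-0.27 and -0.41), so the numbers were not taken to pair the samples. The replicate block called the same keratins in each comparison and moved the list members between the isoforms to 4. With the 18 kDa numbers exchanged, added after seeing the data, 4 keratins passed with each isoform and 3 between them. In that fit 6 list members passed between the isoforms and 24 with 22.5 kDa FGF2. The tally of keratin fold changes above, and its limits for KRT10, do not cover this fit. The causes were not tested. The 43 untested keratins had too few counts at this depth for a comparison, and 2-fold changes were often missed on simulated counts.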
